A study of Mus musculus with 10 samples.

Results

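Loss of Maf was examined in spleen regulatory T cells (Tregs) by setting 3 Maf-KO spleen libraries against 3 WT spleen libraries, 6 of the 10 RNA-seq libraries of the series, across all 13214 genes with enough counts to be tested. The 6 libraries were chosen by their labelled tissue and genotype, not by any measured value. The other 4 libraries came from Tregs of the gut (colon plus small intestine), 2 per genotype. The series concerns how c-Maf in Tregs bears on intestinal TH17 cells and IgA. All mice are labelled C57BL/6. WT mice carried Foxp3Cre-YFP alone, and Maf-KO mice carried Foxp3Cre-YFP with Maf fl/fl, so both genotypes carried the Cre-YFP allele. Cre was driven from Foxp3, and cells were sorted as CD4+ TCRb+ YFP+, so the comparison covers cells with YFP and not other spleen cells. No treatment is given in the labels, and neither the age nor the sex of the mice, nor whether libraries were pooled, is given there. The 6 spleen titles carry 6 different numbers. Where libraries did not come from separate mice, p-values measure only the spread between these libraries.

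Tregs form the CD4 lineage under the transcription factor Foxp3, and hold back other lymphocytes through cytokines, surface receptors and competition for growth factors. Maf encodes c-Maf, a basic leucine zipper transcription factor that binds DNA as a dimer, at Maf recognition elements that extend a core shared with AP-1. In T cells c-Maf is known as an activator of Il10 and as a factor of Th17 and follicular helper cells. Spleen holds many resting Tregs that circulate through lymphoid organs, next to a smaller share of activated effector Tregs.

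The spleen libraries held 8567035 to 12225539 counts, and 3 counts in a library corresponded to 0.231 to 0.330 CPM (the count of a gene relative to all counts of its library, after normalisation). Between 15851 and 17141 genes had a count, and ribosomal protein genes took 0.628% to 0.877% of counts. The labelled cell type held: the 8 T cell markers summed to 4507 to 5107 CPM in WT and 4476 to 5190 CPM in Maf-KO, and the 4 Treg markers (Foxp3, Il2ra, Ikzf2 and Ctla4) summed to 1291 to 1389 CPM and 1044 to 1315 CPM. Markers of other cells were present as well. The B cell markers summed to 254 to 397 CPM in WT and 178 to 506 CPM in Maf-KO, and those of macrophages, monocytes and neutrophils to 165 to 878 CPM and 147 to 503 CPM. For all 11 marker lists the summed levels of the groups overlapped.

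WT spleen replicate 2 stood apart from the other WT libraries at a small set of genes on chromosome 7, seen after the data were examined. Trim12a had 0.0889, 24.9 and 0 CPM in WT replicates 1, 2 and 3, and 22.7, 32.3 and 26.7 CPM in Maf-KO. Trim5 had 0.711, 16.4 and 1.14 CPM in WT and 15.5, 12.7 and 20.7 CPM in Maf-KO. Trim30d had 0.444, 18.3 and 1.90 CPM in WT and 26.0, 25.7 and 18.8 CPM in Maf-KO. In each of these 3 genes WT replicate 2 was at or near the Maf-KO level and the other 2 WT libraries were far below it.

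The same order of libraries was seen for Trim34a, with 12.9, 38.0 and 13.3 CPM in WT and 42.7, 52.2 and 40.2 CPM in Maf-KO. It was seen too for Neu3, a sialidase gene, with 3.56, 24.4 and 7.11 CPM in WT and 42.8, 27.3 and 32.0 CPM in Maf-KO. The 4 Trim genes, which encode related ubiquitin ligases of antiviral defence, lie between 104244448 and 104507853 on chromosome 7 (GRCm38), and Neu3 lies from 99811434 to 99828457. Reads of these related Trim genes could be split between copies by the counting, so their single values are uncertain. With all 3 WT libraries none of the 5 genes passed the test. Without WT replicate 2 all 5 passed as higher in Maf-KO, with log2 fold changes of 8.87 for Trim12a, 4.13 for Trim5, 4.33 for Trim30d, 1.78 for Trim34a and 2.67 for Neu3 (edgeR adjusted p = 0.00101, 0.00952, 0.0278, 0.00917 and 0.0322). In gut, Trim12a had 0.126 and 0 CPM in the WT libraries and 17.0 and 15.6 CPM in the Maf-KO libraries, so there these genes and the genotype cannot be told apart. Maf and Rnase4, the genes called in spleen, passed with and without WT replicate 2.

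**Figure D1:**
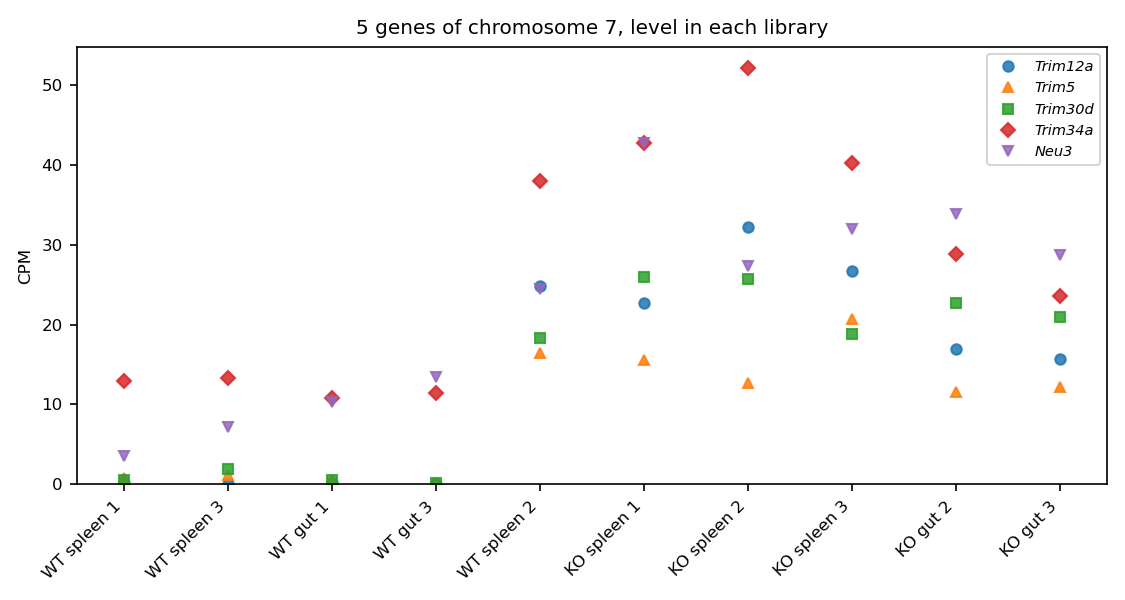
Level in CPM (y axis) of Trim12a, Trim5, Trim30d, Trim34a and Neu3 in each of the 10 libraries (x axis), 1 point per gene and library; the libraries are placed so that those with low levels come first. WT spleen replicate 2 lies among the Maf-KO libraries, with 24.9 CPM of Trim12a, whereas WT spleen replicates 1 and 3 lie with the WT gut libraries.

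The first question is whether Maf RNA was lost in the sorted cells. Maf (chromosome 8 from 115703253 to 115706894) had 337, 312 and 484 counts in WT replicates 1, 2 and 3 and 2, 10 and 2 counts in Maf-KO. In CPM these were 30.0, 24.0 and 45.9 in WT and 0.217, 1.10 and 0.195 in Maf-KO. All 3 Maf-KO libraries lay far below all 3 WT libraries, and 2 of them held fewer than 3 counts. Maf fell by 6.04 on the log2 scale (SE 0.46, n = 3 per group, edgeR adjusted p = 0.00188), a 66.0-fold lower fitted level. Leaving out each library in turn gave log2 fold changes from -7.26 to -5.64, and each of these 6 fits called Maf. The call was not made by limma-voom (adjusted p = 0.0929).

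Across the 13214 genes, 2 passed an adjusted p of 0.05 (0.0151%), Maf and Rnase4. Both were lower in Maf-KO (0.0151% of genes), and none was higher (0%) by edgeR. An unadjusted p under 0.05 was found for 376 genes (2.85%), 195 lower (1.48%) and 181 higher (1.37%). DESeq2, a count test with its own estimate of the spread, called 19 genes, 15 lower and 4 higher, and limma-voom called 0. The median log2 fold change over all genes was -0.01, with 6795 genes below 0 (51.4%) and 6412 above 0 (48.5%), and the median SE was 0.19. The 95% interval of a single gene lay within 2-fold in both directions for 9882 genes (74.8%). The 3 libraries of a genotype lay wholly below those of the other in 516 genes with Maf-KO lower (3.90%) and in 476 with Maf-KO higher (3.60%), 992 in all (7.51%). The first principal component of the spleen libraries (31.0% of the variance) did not separate the genotypes, since both WT and Maf-KO libraries lay on each side of 0. On the second (24.8%), WT replicates 1, 2 and 3 lay at 25.8, 2.36 and 16.6, and those of Maf-KO at -42.2, 2.59 and -5.07. The groups overlapped there only through replicate 2 of each genotype.

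**Figure D2:**
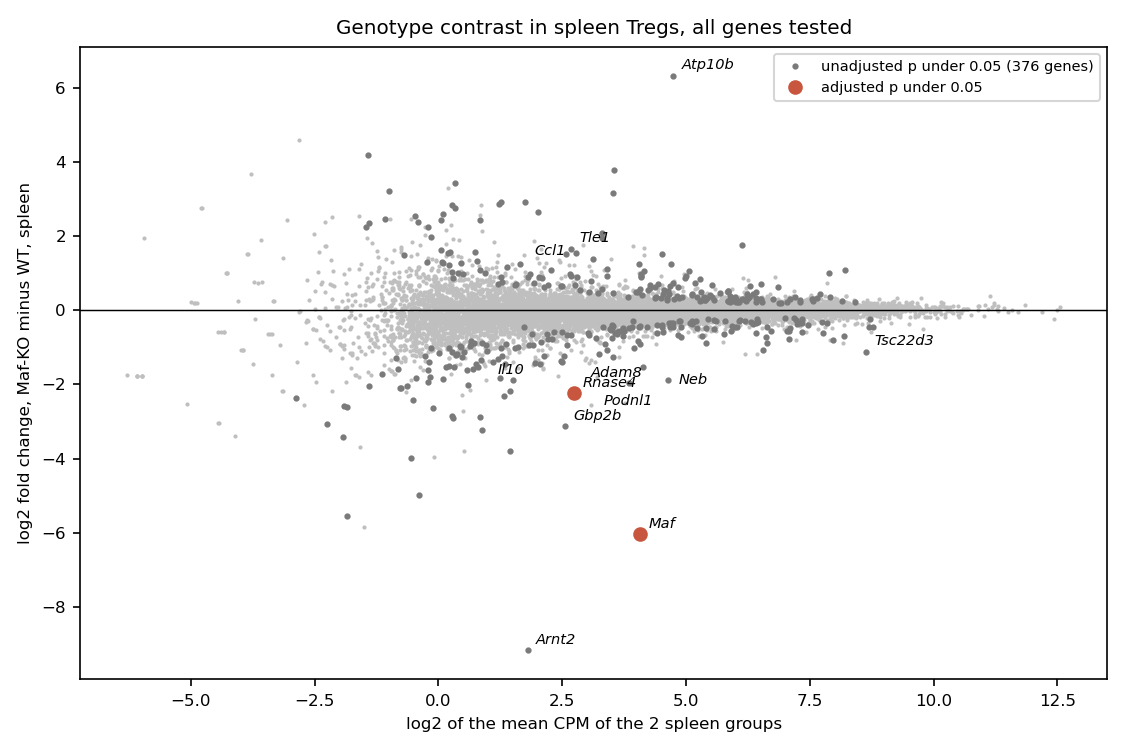
Log2 fold change of Maf-KO against WT spleen Tregs (y axis) against the log2 of the mean CPM of the spleen groups (x axis), 1 point per gene tested. Maf at -6.04 and Rnase4 at -2.24 are the genes called (large points); the 376 genes with an unadjusted p under 0.05 are in dark grey, and the fitted values of genes with 0 counts in a group, such as Arnt2, depend on the prior count of the fit.

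Rnase4 was the only gene other than Maf called by the edgeR test. It encodes a secreted ribonuclease of the RNase A family, and shares its first base in the annotation with Ang, which encodes the ribonuclease angiogenin. Rnase4 (chromosome 14 from 51091077 to 51106151) had 10.3, 10.2 and 12.5 CPM in WT and 2.82, 1.87 and 2.24 CPM in Maf-KO. The WT libraries were within a narrow range and all Maf-KO libraries lay below it. Rnase4 fell by 2.24 on the log2 scale (SE 0.20, n = 3 per group, edgeR adjusted p = 0.00312), or 4.74-fold. It was called in each fit that left out 1 spleen library, with log2 fold changes from -2.41 to -2.12, but not in the spleen libraries fitted alone (adjusted p = 0.129) nor by limma-voom (adjusted p = 0.0834).

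Ang (chromosome 14 from 51091077 to 51102009) had 12, 15 and 20 counts in WT, against 3, 4 and 3 in Maf-KO. Its levels of 1.07, 1.15 and 1.90 CPM in WT and 0.325, 0.440 and 0.292 CPM in Maf-KO did not overlap. The log2 fold change of -1.93 (SE 0.44) had an unadjusted p of 0.00141 in edgeR and did not pass (adjusted p = 0.978). The genes overlap on the same strand, and how reads of the shared part were assigned is not given in the sources used here, so their counts may not be independent. Of the 9 genes on the list of RNase A family members and their inhibitor, 4 were tested: 1 was lower by adjusted p (Rnase4), 0 were higher, and the inhibitor gene Rnh1 had a log2 fold change of -0.04.

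The sequence upstream of the 2 annotated starts of Rnase4 is shown because Rnase4 was the called gene, and because the first of these starts is also that of Ang. Each run is the 250 bases before a start on the plus strand, from RefSeq on GRCm38.p6, at chr14:51090827-51091076 and chr14:51095750-51095999. All promoters were searched on both strands for TGCTGA, the core of a Maf recognition element, and for TGACTCA, the AP-1 site that lies inside 1 form of that element. TGCTGA was found in 5282 of 32851 promoters (16.1%) and TGACTCA in 1466 (4.46%). Neither run below holds either motif, so no letters are in capitals.
Rnase4 and Ang shared start: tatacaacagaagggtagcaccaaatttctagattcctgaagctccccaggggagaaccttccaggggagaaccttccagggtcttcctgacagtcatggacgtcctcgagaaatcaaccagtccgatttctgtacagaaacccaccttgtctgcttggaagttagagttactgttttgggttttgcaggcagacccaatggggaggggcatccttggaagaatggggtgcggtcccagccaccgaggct
Rnase4 second start: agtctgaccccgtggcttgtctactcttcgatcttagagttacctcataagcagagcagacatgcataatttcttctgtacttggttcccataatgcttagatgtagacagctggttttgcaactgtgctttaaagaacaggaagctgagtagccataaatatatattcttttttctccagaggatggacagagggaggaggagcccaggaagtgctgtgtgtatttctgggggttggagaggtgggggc

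Below the threshold, 10 genes per direction were taken by lowest unadjusted p among those with at least 5 CPM and groups that did not overlap. None of these passed the adjusted test in edgeR, so they are given as levels. Since the choice required groups that do not overlap, the lack of overlap in them is no result.

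Il10, the gene of the anti-inflammatory cytokine interleukin 10, had 7.64, 3.69 and 6.83 CPM in WT and 2.60, 1.76 and 2.24 CPM in Maf-KO. Its log2 fold change was -1.44 (SE 0.30, unadjusted p = 6.565e-04, edgeR adjusted p = 0.578). WT replicate 2 had the lowest Il10 level of its group, and without it Il10 was called (-1.71, adjusted p = 0.0311). DESeq2 called it too (adjusted p = 0.00111), but only 3 of the 14 alternative settings did. Neither limma-voom (adjusted p = 0.9998) nor edgeR on the spleen libraries alone (adjusted p = 0.998) called Il10.

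Sh2d1a encodes SAP, the adaptor of SLAM receptors that T cells need to help B cells. It had 162, 131 and 222 CPM in WT and 92.0, 105 and 101 CPM in Maf-KO, a log2 fold change of -0.79 (SE 0.17, edgeR adjusted p = 0.749). Tsc22d3 encodes GILZ, a leucine zipper protein induced by glucocorticoids. It had 482, 434 and 721 CPM in WT and 215, 285 and 256 CPM in Maf-KO, a log2 fold change of -1.11 (SE 0.21, edgeR adjusted p = 0.412). In both genes WT replicate 3 was the highest library and the Maf-KO libraries lay close to each other.

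Neb, the gene of the muscle thin filament protein nebulin, came nearest to the threshold. Its levels were 43.5, 26.2 and 47.5 CPM in WT and 9.0, 11.6 and 11.4 CPM in Maf-KO, a log2 fold change of -1.87 (SE 0.23, edgeR adjusted p = 0.0512). Without WT replicate 2, the lowest WT library, Neb was called (-2.09, adjusted p = 0.00331). In all, 3 of the 14 alternative settings called Neb, and the highest adjusted p among the settings was 0.479. Arnt2, a partner of bHLH-PAS transcription factors, had 43, 62 and 130 counts in WT and 0 counts in each Maf-KO library. Taking 3 counts for the whole Maf-KO group as the floor, it was at least 64.3-fold lower (edgeR adjusted p = 0.204). It was called by DESeq2 (adjusted p = 3.074e-07) and on the deposited log2 values (adjusted p = 0.0027), but in only 3 of the 14 alternative settings. Neither limma-voom (adjusted p = 0.341) nor edgeR on the spleen libraries alone (adjusted p = 0.327) called Arnt2.

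Mafg encodes a small Maf protein, which has no activation domain and pairs with larger bZIP factors. It had 12.0, 13.6 and 14.9 CPM in WT and 6.83, 5.95 and 8.77 CPM in Maf-KO, a log2 fold change of -0.91 (SE 0.17, edgeR adjusted p = 0.383). Of its relatives, Mafk had a log2 fold change of -0.11 (SE 0.12), with overlapping groups, and Maff had -0.56 (SE 0.37). Of 18 Maf family members and bZIP partners listed, 15 were tested and 0 were called by edgeR, 1 lower (Mafg) and 0 higher at an unadjusted p under 0.05. Jun and Nfe2l2, which pair with Maf proteins or their relatives, had log2 fold changes of -0.05 (SE 0.34) and 0.01 (SE 0.14).

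Gbp2b, an interferon-inducible guanylate-binding protein gene, had 11.4, 10.2 and 10.2 CPM in WT and 1.19, 1.87 and 0.584 CPM in Maf-KO. The WT libraries were alike and the Maf-KO libraries were all far below, a log2 fold change of -3.13 (SE 0.52, edgeR adjusted p = 0.235). Gbp2b belongs to a family of similar genes whose reads the counting could split, so its level is uncertain. Of the 15 type I interferon genes listed, 0 were called and 0 had an unadjusted p under 0.05, and their median log2 fold change was 0.17. The 250 bases before the Gbp2b start (GRCm38.p6, chr3:142594597-142594846, plus strand, RefSeq) are shown because Gbp2b was the only one of the 6 lower genes with a promoter entry, of 11 without Maf, that held TGCTGA (16.7%, against 16.1% of all promoters). The match lies on the minus strand, reads TCAGCA in the run, begins at position -83 from the start and is in capitals. It is a match of letters only.
Gbp2b: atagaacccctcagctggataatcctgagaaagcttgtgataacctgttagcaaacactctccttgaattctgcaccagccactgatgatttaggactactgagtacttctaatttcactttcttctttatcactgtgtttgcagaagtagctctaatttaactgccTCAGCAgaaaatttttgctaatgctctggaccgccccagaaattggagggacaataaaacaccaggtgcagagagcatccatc

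The remaining 3 lower genes were Snx2, a sorting nexin of endosomes, Podnl1, an extracellular leucine-rich repeat protein, and Adam8, a membrane metalloprotease. Snx2 had the smallest spread, with 157, 143 and 167 CPM in WT and 99.1, 103 and 117 CPM in Maf-KO (log2 fold change -0.55, SE 0.10, edgeR adjusted p = 0.349). Podnl1 had 18.4, 36.3 and 13.8 CPM in WT and 3.47, 9.91 and 4.48 CPM in Maf-KO. Adam8 had 11.6, 16.6 and 11.2 CPM in WT and 4.12, 7.27 and 6.14 CPM in Maf-KO. Of both genes replicate 2 had the most RNA within each genotype, and their edgeR adjusted p was 0.999.

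**Figure D3:**
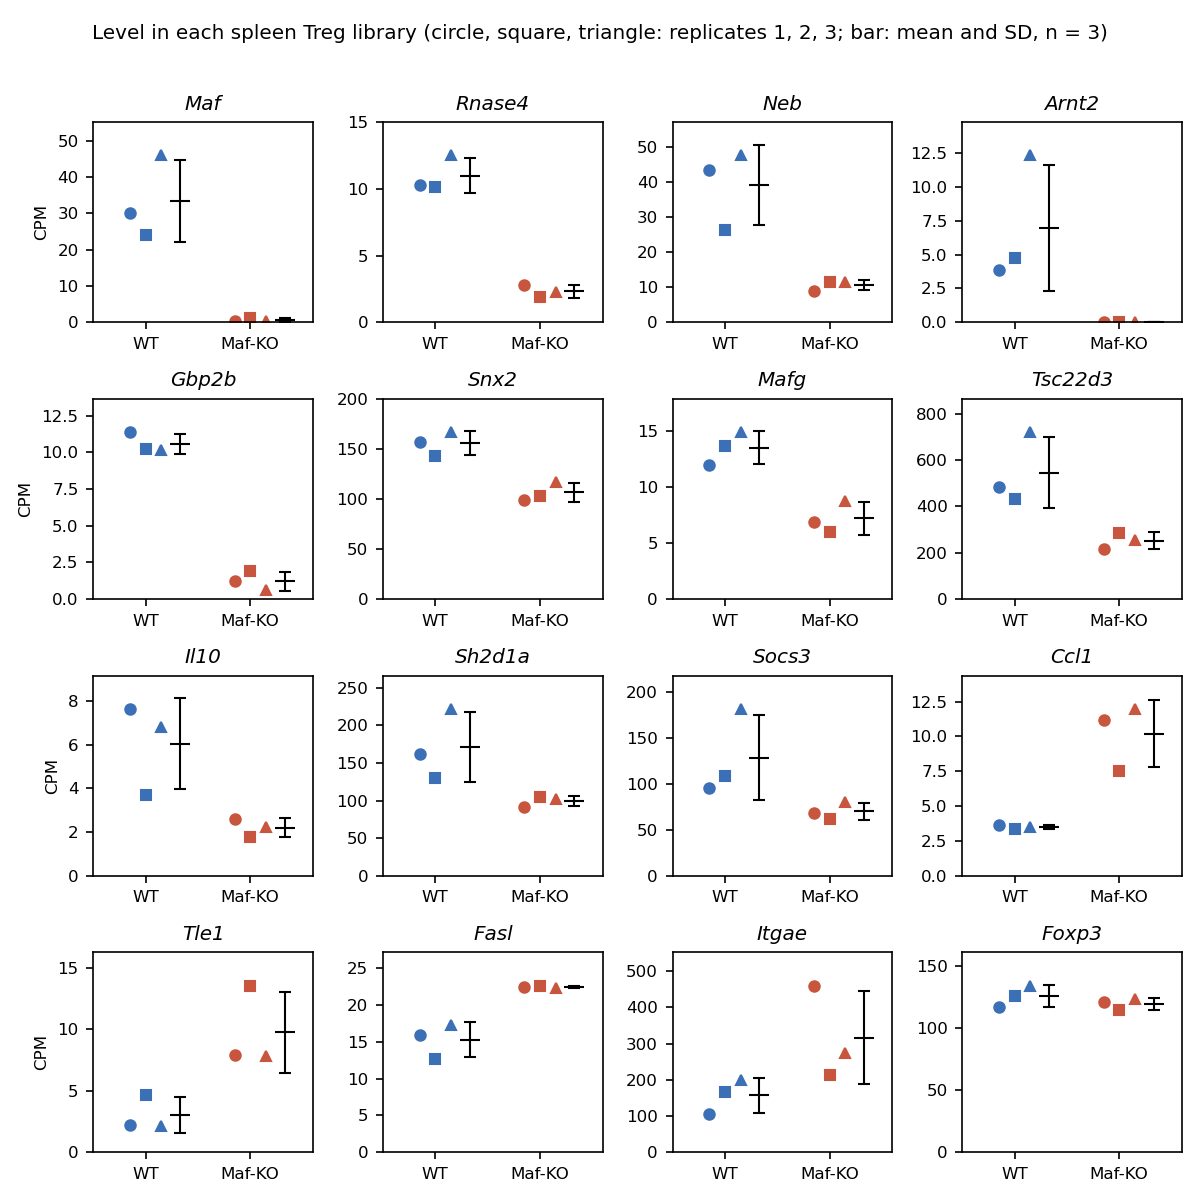
Level in CPM (y axes, from 0) of 16 genes in the 3 WT and 3 Maf-KO spleen libraries, with the mean and SD beside the points (n = 3). The Maf-KO points of Maf lie near 0, those of Rnase4 between 1.87 and 2.82 CPM, and the groups overlap for Foxp3.

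Of the genes with more RNA in Maf-KO, Ccl1 had the lowest p. It encodes the chemokine ligand of CCR8, a receptor of Th2 cells and tissue Tregs. Ccl1 had 3.64, 3.39 and 3.51 CPM in WT and 11.2, 7.49 and 12.0 CPM in Maf-KO, a log2 fold change of 1.54 (SE 0.23, edgeR adjusted p = 0.163). DESeq2 called it (adjusted p = 1.338e-04), as did the test on the deposited log2 values (adjusted p = 0.0177), but only 3 of the 14 alternative settings did. Neither limma-voom (adjusted p = 0.341) nor edgeR on the spleen libraries alone (adjusted p = 0.568) called Ccl1. Fasl, the death ligand of activated T cells, had 15.9, 12.6 and 17.3 CPM in WT and 22.3, 22.6 and 22.3 CPM in Maf-KO, a log2 fold change of 0.56 (SE 0.14, edgeR adjusted p = 0.999). The promoters of 7 of the 10 higher genes were in the table, and that of Fasl was the only one with TGCTGA (14.3%).

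Tle1, a corepressor of the Groucho family, had 2.22, 4.70 and 2.18 CPM in WT and 7.91, 13.5 and 7.79 CPM in Maf-KO, with replicate 2 highest in both genotypes (log2 fold change 1.67, SE 0.35, edgeR adjusted p = 0.699). Atp6v0d2, a subunit of the vacuolar proton pump, had 9.33, 10.9 and 15.5 CPM in WT and 21.5, 18.4 and 26.1 CPM in Maf-KO (log2 fold change 0.89, SE 0.21). Trps1, a GATA-type repressor, had 18.6, 17.2 and 21.6 CPM in WT and 31.0, 26.2 and 26.2 CPM in Maf-KO (log2 fold change 0.54, SE 0.14). The last pair of genes had an edgeR adjusted p of 0.999.

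The fold change of Atp10b, a lipid flippase gene, rested on 1 library. It had 0.267, 0.154 and 1.61 CPM in WT and 144, 13.5 and 1.75 CPM in Maf-KO, so that Maf-KO replicate 3 was barely above WT replicate 3. Its log2 fold change was 6.33 (SE 1.48, edgeR adjusted p = 0.999) with all libraries and 3.52 without Maf-KO replicate 1. The other 4 of the 10 were Actn2, Crybg3, Hist1h2ac and Cpd, with log2 fold changes of 0.66, 0.61, 0.98 and 0.53. Hist1h2ac belongs to the histone H2A family of near-identical genes, so its count is uncertain.

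The genes that define the lineage gave no call. Foxp3, the master factor of Tregs, had 117, 126 and 134 CPM in WT and 121, 114 and 123 CPM in Maf-KO, and the groups overlapped. Its log2 fold change was -0.07, with a 95% interval of -0.35 to 0.20 (edgeR adjusted p = 0.999). Il2ra, the receptor subunit CD25, had a log2 fold change of -0.09 (95% interval -0.53 to 0.35), and Ikzf2, the gene of Helios, -0.17 (-0.58 to 0.25). Of the 15 Treg identity genes listed, all 15 were tested, 0 were called, 1 was lower (Nt5e) and 0 were higher at an unadjusted p under 0.05, and the interval of each lay within 2-fold. Nt5e encodes CD73, the ectoenzyme that makes adenosine. It had 353, 504 and 583 CPM in WT and 430, 324 and 296 CPM in Maf-KO, overlapping, with a log2 fold change of -0.46 (SE 0.20).

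Among 10 Treg suppressive mediators 0 were called, 3 were lower (Il10, Areg and Nt5e) and 1 was higher (Fgl2) at an unadjusted p under 0.05. Areg, the tissue repair factor amphiregulin, had 5.60, 5.85 and 7.11 CPM in WT and 5.42, 3.08 and 2.34 CPM in Maf-KO (log2 fold change -0.78, SE 0.25). Fgl2, a secreted suppressive protein, had 69.1, 91.4 and 112 CPM in WT and 172, 119 and 134 CPM in Maf-KO (0.64, SE 0.18). Tgfb1 and Ebi3, for TGF-beta and a subunit of interleukin 35, had log2 fold changes of 0.07 and 0.19. The median of the list was 0.01, near that of all genes.

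Genes of effector and of resting Tregs were tested next. Of 14 effector Treg genes 0 were called, 1 was lower (Il10) and 2 were higher (Itgae and Cd44) at an unadjusted p under 0.05, with a median log2 fold change of 0.08. Itgae, the integrin CD103 that binds E-cadherin, had 105, 167 and 201 CPM in WT and 460, 215 and 273 CPM in Maf-KO, a log2 fold change of 1.0 (SE 0.30). Maf-KO replicate 1 was highest, and without it the log2 fold change was 0.63. The effector factors Prdm1, Irf4 and Batf had overlapping groups and log2 fold changes of 0.20 (SE 0.34), 0.05 (SE 0.16) and 0.08 (SE 0.25).

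Of 12 genes of resting Tregs and lymphoid homing 0 were called and 0 had an unadjusted p under 0.05. Ccr7, the chemokine receptor that brings T cells into lymph nodes, had 437, 385 and 280 CPM in WT and 230, 342 and 391 CPM in Maf-KO. The groups overlapped, and the log2 fold change was -0.20 (95% interval -0.89 to 0.50). Among 14 homing and adhesion genes 0 were called. At an unadjusted p under 0.05, 2 were higher (Cxcr6 and Itgae) and 1, not named here, was lower. Cxcr6, a chemokine receptor gene of tissue T cells, had 42.2, 30.3 and 34.1 CPM in WT and 47.3, 64.1 and 59.0 CPM in Maf-KO (log2 fold change 0.68, SE 0.20).

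Of the Th17 genes, none was called by edgeR. Ccl20, the ligand of CCR6, had 9, 5 and 5 counts in WT and 0 counts in each Maf-KO library, at least 5.20-fold lower with the same floor (edgeR adjusted p = 0.999). Ccr6 had a log2 fold change of 0.18 (SE 0.16), and the cytokine gene Il17a had 0 counts in all 6 libraries, which allows up to 0.231 to 0.330 CPM per library and covers counting error only.

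Of the follicular genes, none was called by edgeR. Of 14 genes of follicular helper and regulatory cells 13 were tested, and 0 were called. At an unadjusted p under 0.05, 3 were lower (Sh2d1a, Il21 and Ascl2) and 0 higher, where 1.48% of all genes tested were lower and 1.37% higher. As this list too was chosen with earlier results of these data known, the count carries no test. Il21, the cytokine of follicular helper cells, had 72, 12 and 83 counts in WT, against 10, 0 and 0 in Maf-KO. In CPM the Il21 groups overlapped, with 0.924 in WT replicate 2 and 1.08 in Maf-KO replicate 1. The log2 fold change was -3.79 (SE 1.17, edgeR adjusted p = 0.999). Ascl2, an early follicular helper factor, had 14, 12 and 21 counts in WT, against 6, 4 and 1 in Maf-KO (log2 fold change -1.79, SE 0.77). Of the defining members, Cxcr5 had 89.9, 95.4 and 113 CPM in WT and 105, 76.0 and 72.1 CPM in Maf-KO (-0.24, SE 0.20), Bcl6 had a log2 fold change of -0.01, and Icos had -0.20 (SE 0.25). Because bulk RNA was measured, fewer cells with a gene and less RNA of it per cell cannot be told apart.

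Genes of the other helper fates gave no call either. Tbx21, the Th1 factor, had a log2 fold change of 0.17 (SE 0.14), Ifng -0.18 (SE 0.35) and the Th2 factor Gata3 0.21 (SE 0.15), each with overlapping groups. Of 13 Th1 genes 1 was higher at an unadjusted p under 0.05, Nkg7, with 102, 91.4 and 95.8 CPM in WT and 116, 114 and 125 CPM in Maf-KO (0.30, SE 0.12). Of 6 tested Th2 genes 1 was lower, Areg, described above. A list of 12 genes known from other T cells as regulated by c-Maf had 0 called, 2 lower (Il10 and Il21) and 0 higher at an unadjusted p under 0.05, with a median of -0.09. Its coinhibitory receptors were Ctla4 (-0.36, SE 0.17), Havcr2 (0.50), Lag3 (0.50), Tigit (0.26) and Pdcd1 (-0.05), with no unadjusted p under 0.05.

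**Figure D4:**
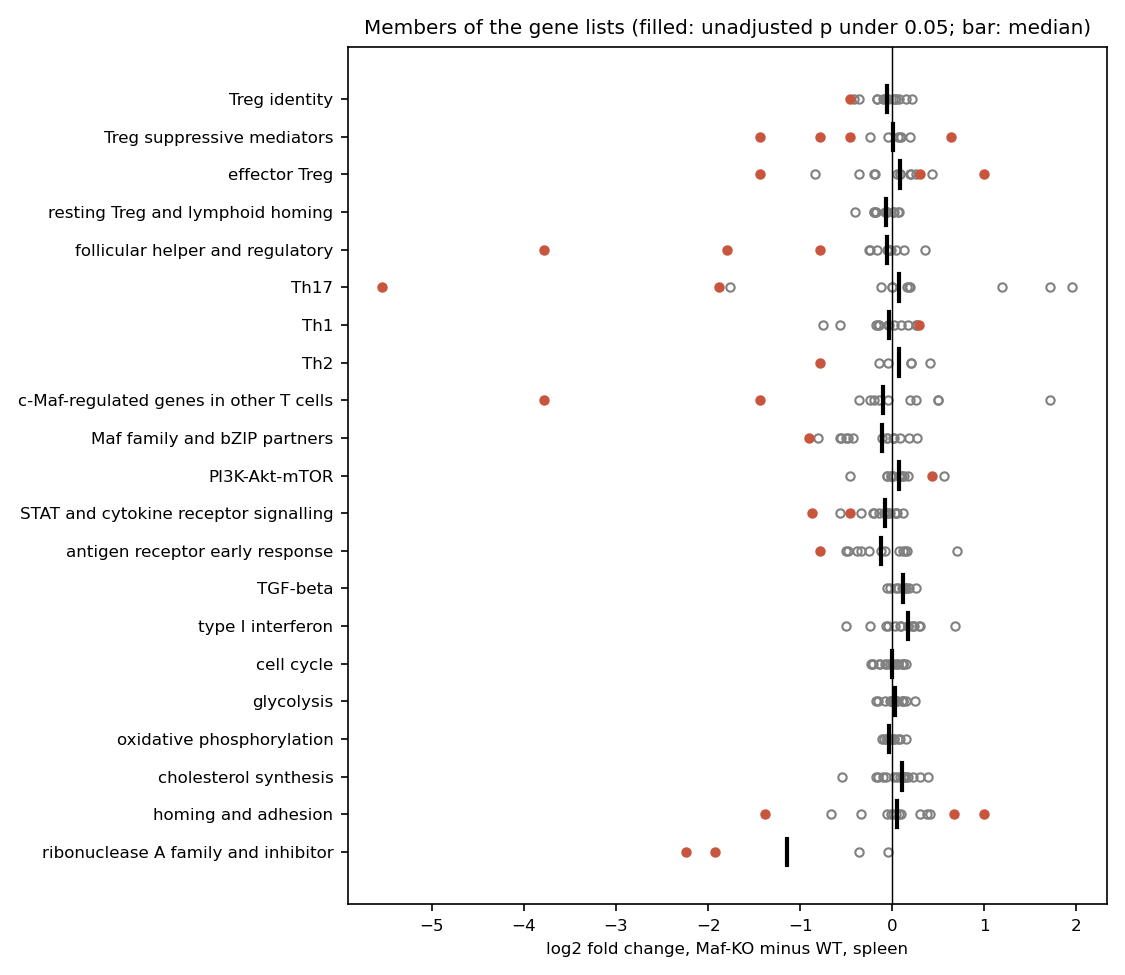
Log2 fold change of Maf-KO against WT in spleen (x axis) of each tested member of 21 gene lists (rows), with the median as a black bar and members with an unadjusted p under 0.05 filled. Most members lie close to 0. The 4 tested genes of the RNase A family and inhibitor list have a median of -1.14 and range from -2.24 (Rnase4) to -0.04 (Rnh1). Rnase4 and Ang share a start and may share reads, so this median is no result about the family. The fitted values of genes with almost no counts, such as Ccl20, depend on the prior count.

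Among signalling genes, single members had an unadjusted p under 0.05. Socs3, the feedback inhibitor of STAT3 signalling, had 95.8, 109 and 182 CPM in WT and 68.4, 62.1 and 80.2 CPM in Maf-KO (log2 fold change -0.87, SE 0.23, edgeR adjusted p = 0.999). It was 1 of 2 members lower at an unadjusted p under 0.05 among 16 genes of STAT and cytokine receptor signalling, with Bcl3, an atypical IkB protein, at -0.46 (SE 0.20). Stat3 itself had a log2 fold change of 0.05, and the interleukin 10 receptor genes Il10ra and Il10rb had -0.34 and -0.07. Of 13 early genes of the antigen receptor response 1 was lower, Dusp1, a MAP kinase phosphatase. Dusp1 had 430, 238 and 284 CPM in WT and 182, 135 and 235 CPM in Maf-KO (-0.79, SE 0.25). Nr4a1 and Egr1, which report recent receptor signals, had log2 fold changes of -0.08 and 0.17. Of 15 PI3K, Akt and mTOR genes 1 was higher, Rptor, the mTORC1 subunit Raptor, with 52.0, 74.5 and 65.5 CPM in WT and 91.9, 81.0 and 85.7 CPM in Maf-KO (0.43, SE 0.15). None of these genes was called by edgeR.

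The lists of the TGF-beta pathway, of metabolism and of the cell cycle differed in precision. Over all genes tested, 74.8% had a 95% interval within 2-fold. All 12 TGF-beta pathway genes, all 15 glycolysis genes and all 15 oxidative phosphorylation genes had 95% intervals within 2-fold and an unadjusted p above 0.05, with median log2 fold changes of 0.12, 0.03 and -0.04. Of 16 cholesterol synthesis genes 13 had such an interval, and 0 had an unadjusted p under 0.05 (median 0.10). The 17 cell cycle genes had a median of 0.00 and no unadjusted p under 0.05, but 10 of them had an interval within 2-fold. Mki67, the proliferation marker, had 87.5, 98.6 and 54.1 CPM in WT and 101, 98.2 and 61.7 CPM in Maf-KO (0.12, 95% interval -0.45 to 0.69). In both genotypes replicate 3 was the lowest.

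The genes called in gut Tregs give a second view of the spleen values. In the same model 20 genes were called in gut (0.151%), 18 lower (0.136%) and 2 higher (0.0151%) in Maf-KO. In spleen, 2 of the 20 were called, Maf and Rnase4, and 13 had an unadjusted p under 0.05, 12 lower and 1 higher. The 2 tissues share the model and, by the numbers in their titles, may share mice, so these counts carry no test. The spleen log2 fold change had the sign of that in gut in all 20, and was smaller in size in 19, the exception being Ccl20, whose fitted value rests on 0 counts.

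The test of the difference itself called 0 of the 13214 genes by edgeR (0%). An unadjusted p under 0.05 was found for 422 genes (3.19%), among them 16 of the 20, and the lowest adjusted p was 0.605. The 20 were picked by their gut values, so the larger size in gut is no independent result. Rnase4 had the log2 fold changes -2.24 (SE 0.20) in spleen and -4.29 (SE 0.24) in gut, a difference of 2.05 (unadjusted p = 4.575e-05, edgeR adjusted p = 0.605). DESeq2 called 8 genes as different between tissues, Rnase4, Nkg7, Cd7 and Mynn among them.

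For the other genes called in gut, the values of both tissues are set side by side. Neb had -1.87 (SE 0.23) in spleen and -2.13 (SE 0.26) in gut, with an unadjusted p of 0.471 for the difference. Col16a1, a collagen gene, had 18, 10 and 22 counts in WT spleen and 1, 0 and 0 counts in Maf-KO spleen, a ratio of 41.1 with a 95% counting interval of 7.04 to 1654. Matn2, a matrix protein gene, had 17.2, 21.8 and 23.1 CPM in WT and 7.81, 10.2 and 12.4 CPM in Maf-KO spleen, a log2 fold change of -1.02 (SE 0.27) against -2.45 (SE 0.38) in gut. Arl5a, a GTPase gene of the Golgi, had -0.59 (SE 0.18) against -1.75 (SE 0.22), and Laptm4b, a lysosomal membrane protein gene, had -0.25 (SE 0.18) against -1.64 (SE 0.23). Mynn, a zinc finger protein gene, had 79.6, 77.8 and 77.4 CPM in WT spleen and 68.5, 78.7 and 75.8 CPM in Maf-KO spleen, and a log2 fold change of -0.07 (SE 0.09) against -0.84 (SE 0.11) in gut. Its spleen groups overlapped. The higher genes were Nkg7, given above, with 0.30 (SE 0.12) in spleen against 1.2 (SE 0.14) in gut, and Cd7, a surface protein gene of T and NK cells, with 0.28 (SE 0.16) against 1.52 (SE 0.19). Prg4, Frmd5, Lrif1, Gpr155 and the pseudogene Hmga2-ps1 had spleen log2 fold changes of -0.29, -0.50, -0.17, -0.48 and -0.91.

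**Figure D5:**
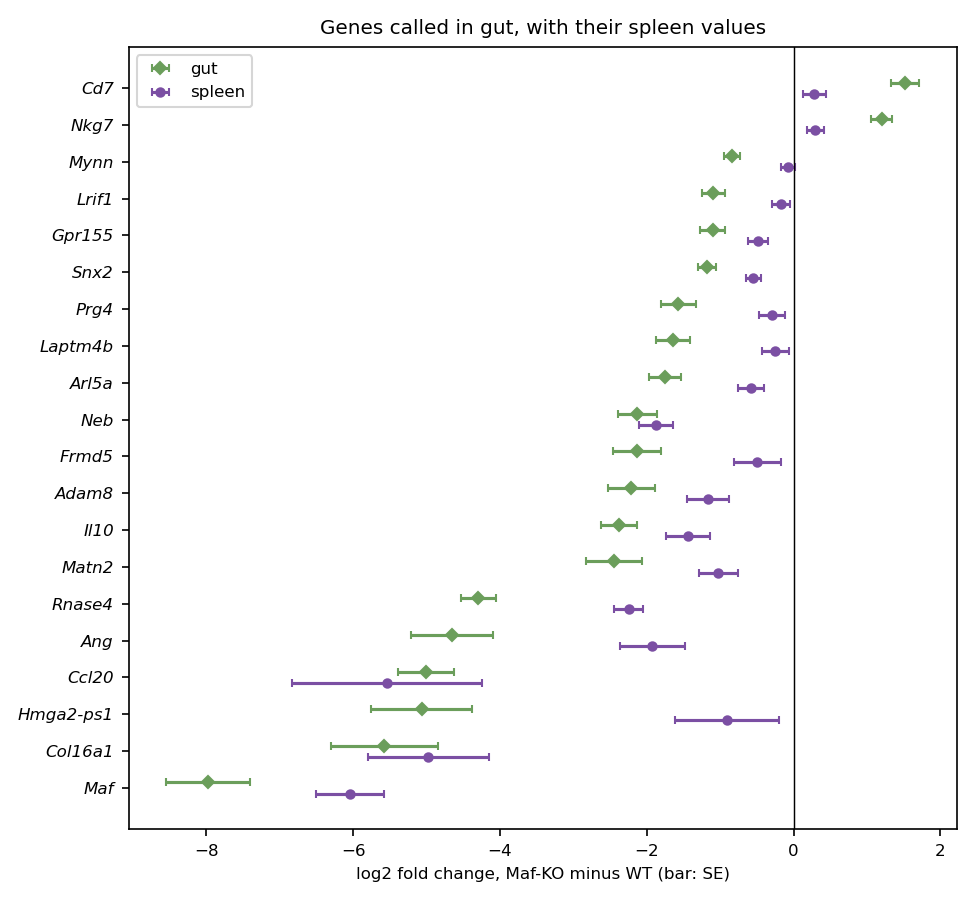
Log2 fold change of Maf-KO against WT (x axis; bars are the SE) in gut (diamonds) and spleen (circles) for the 20 genes called in gut (rows). The spleen circles lie between the gut diamonds and 0 for 19 of the 20 genes, with Rnase4 at -2.24 against -4.29; Ccl20 in spleen is a fitted value against 0 counts.

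The genes around Maf were checked as well, since they lie beside the deleted gene. Within 5 Mb of Maf on chromosome 8, 58 other genes were tested. None was called by edgeR, and the median log2 fold change was 0.02. Of the 58, 3 had an unadjusted p under 0.05, where the share over all genes tested was 2.85%. Nudt7, a peroxisomal hydrolase gene, had 12.0, 11.0 and 11.3 CPM in WT and 7.05, 5.50 and 7.89 CPM in Maf-KO (log2 fold change -0.74, SE 0.20). St3gal2, a sialyltransferase gene, had overlapping groups (0.35, SE 0.14). Bcar1, an adaptor gene of adhesion signalling, had 5, 4 and 2 counts in WT, against 56, 1 and 5 in Maf-KO, so its value came from Maf-KO replicate 1. Wwox and Cdyl2, the genes named here on either side of Maf, had log2 fold changes of 0.59 (SE 0.29) and 0.16 (SE 0.14).

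Some markers of other cells differed as well. The platelet markers summed to 7.70 to 24.8 CPM in WT and 4.38 to 11.4 CPM in Maf-KO, with Itga2b and Ppbp at log2 fold changes of -1.42 (SE 0.60) and -1.40 (SE 0.61). The endothelial gene Vwf had 1.87, 1.62 and 4.27 CPM in WT and 1.08, 1.32 and 0.292 CPM in Maf-KO. All 5 tested pancreatic acinar markers had a log2 fold change above 0 (median 1.52), 0 of them with an unadjusted p under 0.05. That list summed to 1.39 to 2.04 CPM in WT and 1.95 to 7.26 CPM in Maf-KO. Of the 12 tested markers of macrophages, monocytes and neutrophils, 9 had a log2 fold change below 0, with a median of -0.34, and 2 were higher at an unadjusted p under 0.05. These were the neutrophil granule genes Mpo and Elane, which had 0 to 0.444 CPM and 0 to 0.178 CPM in WT and 0.867 to 4.77 CPM and 0.325 to 1.43 CPM in Maf-KO. None of these was called by edgeR. The part of such cells in the differences given above was not tested.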

How the data were processed

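RNA of sorted Tregs was purified with a column kit and sequencing libraries were prepared by the TruSeq RNA protocol, as the labels state. The authors deposited a table of raw counts per gene (27179 genes, 10 libraries) and, per library, log2 FPKM values (12252 genes). Subread, featureCounts, limma and the builds GRCm38 and mm10 are listed in the submitters' processing notes. Not given in the sources used here were versions, read assignment and strand. Columns were matched to samples by title.

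From the deposited counts, genes were filtered with edgeR's filterByExpr (minimum count 10, total 15), scaled with TMM (1.06 to 1.12 in spleen) and tested with edgeR 4.0.16's quasi-likelihood F test in R 4.3.3, two-sided, on all 10 libraries with a coefficient per group. The contrasts were Maf-KO minus WT in spleen and in gut, and their difference. Benjamini-Hochberg adjustment ran over the 13214 genes, and a call is an adjusted p under 0.05. The SE is the size of the log2 fold change divided by the square root of F. CPM are effective-library-size values, and 95% intervals are for single genes. Gene positions and promoters are from RefSeq (GRCm38.p6), matched for 25275 genes by Entrez identifier.

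Genes named were Maf, the genes called in spleen, 10 per direction by lowest unadjusted p (at least 5 CPM, no overlap of groups, no predicted, ribosomal, mitochondrial, immunoglobulin or receptor segment genes), 17 set genes, the genes called in gut, and up to 4 members per list by lowest unadjusted p. The genes of chromosome 7, those around Maf, Igha and some further list members were added after their values were seen. Some genes that these rules name are not reported here. The members and the lists were chosen with earlier results of these data known.

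Replicates differed by more than sampling noise (chi-square per degree of freedom 14.8 to 21.1). The scripts were tested on simulated counts. Alternatives were DESeq2 1.42.0 and its size factors, no filter, limma 3.58.1 (voom, and trend on the deposited log2 FPKM), the spleen libraries alone, a replicate block, title number as a random effect, and leaving out each library.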

Additional observations from a re-analysis of the deposited data

How the results depend on the processing

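The number of genes called in spleen, 2 in edgeR, was 2 with DESeq2 size factors, 12 without a filter on low counts, 19 by DESeq2, 0 by limma-voom, 5 by limma-trend on the deposited log2 FPKM, 1 in the spleen libraries alone and 0 once the title number entered voom as a random effect. Leaving out each spleen library in turn gave 2 to 9, with 9 without WT spleen replicate 2 and 3 without WT spleen replicate 3. The replicate numbers were taken as a block in the spleen libraries alone, where 0 genes were called and 194 had an unadjusted p under 0.05. Libraries of the same number correlated at -0.04, -0.18 and -0.35 in their deviations from the group mean. With 3 libraries per group these deviations depend on each other. The values therefore cannot show whether the numbers pair the samples. Maf and Rnase4 were lower under every setting. Neither was called with the replicate block (adjusted p = 0.269 and 0.357), by limma-voom (0.0929 and 0.0834) or by voom with the title number as a random effect (0.132 for each), and Rnase4 was not called in the spleen libraries alone (0.129). The test of the difference between tissues called 0 genes except by DESeq2, with 8. Intervals within 2-fold numbered 9146 to 10080. Signs turned, far from the threshold, over the fits that left out 1 library each: Batf ranged from -0.30 to 0.29, Bcar1 from -0.040 to 3.31, Icos from -0.42 to 0.15, Ifng from -0.53 to 0.28, Il2ra from -0.29 to 0.11, Irf4 from -0.10 to 0.23, Mki67 from -0.10 to 0.31 and Prdm1 from -0.27 to 0.60. The cause of these changes was not tested. With 3 libraries per group and a median SE of 0.19 on the log2 scale, small changes and changes of genes with few counts could be missed. Larger differences of genes with many counts did not all pass either. Tsc22d3, with means of 546 CPM in WT and 252 CPM in Maf-KO, was 2.16-fold lower (edgeR adjusted p = 0.412).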

Other observations

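Immunoglobulin RNA was present in the sorted Tregs, and the gene of the IgA heavy chain, chosen after its values were seen, had groups that did not overlap. Igha had 43.9, 20.6 and 31.5 CPM in WT spleen and 119, 110 and 94.4 CPM in Maf-KO spleen, a log2 fold change of 1.75 (SE 0.44, unadjusted p = 0.00246, edgeR adjusted p = 0.999). In gut it had 12543 and 5993 CPM in WT and 9319 and 2994 CPM in Maf-KO, a log2 fold change of -0.59 (SE 0.51), and the unadjusted p of the difference between tissues was 0.00576. Of 185 immunoglobulin genes tested, 4 were higher and 1 was lower in Maf-KO spleen at an unadjusted p under 0.05, and their median log2 fold change was -0.02. Ighg2b, an IgG heavy chain gene, had 8.18, 7.0 and 47.6 CPM in WT and 36.0, 53.6 and 33.5 CPM in Maf-KO, with WT replicate 3 high. The summed plasma cell markers overlapped between genotypes, at 52.7 to 125 CPM in WT and 78.4 to 119 CPM in Maf-KO. The part of plasma cells in the Igha values was not tested.

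Genes of very low level fell outside the 5 CPM rule and were chosen after their values were seen. Samd11, a gene of a chromatin-associated protein, had 13, 12 and 19 counts in WT, against 1, 0 and 1 in Maf-KO, a ratio of 18.1 with a 95% counting interval of 4.71 to 154. Stab1, a scavenger receptor gene of macrophages and endothelium, had 12, 21 and 9 counts in WT, against 3, 2 and 1 in Maf-KO (log2 fold change -2.43, SE 0.48, edgeR adjusted p = 0.431).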
